A study of Mus musculus with 8 samples.

Results

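The Id genes and the genes of their E-protein partners were followed by RNA-seq in cells with WT CTCF and with CTCF-K20R. The members were taken by name from the expression table: Id1, Id2, Id3 and Id4 for the Id proteins, and Tcf3, Tcf4 and Tcf12 for the E-proteins, which makes 7 of the 18094 genes in the table. All 7 passed the filter on low values, and 15767 genes were tested. The cells were E14Tg2A mESCs, a mouse embryonic stem cell line, kept on mouse embryo fibroblasts whose division had been stopped with mitomycin C, in serum medium with LIF and the 2i inhibitors CHIR99021 and PD0325901. For day 4, both genotypes were grown as hanging drops in serum medium without LIF, where they form embryoid bodies (EBs), the aggregates in which differentiation starts. In the CTCF-K20R cells, lysine 20 of the chromatin protein CTCF had been changed to arginine by CRISPR/Cas9 editing with a donor vector; the other cells were WT. A level of Ctcf mRNA does not show such a mutation, so the genotype labels were not checked here. How many targeted colonies the CTCF-K20R libraries came from is not given in the sources used here. Each genotype was measured on day 0 and on day 4 with 2 libraries, 8 in all.

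Id proteins have a helix-loop-helix domain but no basic region, so they pair with other helix-loop-helix proteins and cannot bind DNA themselves. Their main partners are the E-proteins, which bind E-boxes as pairs with each other or with tissue-specific bHLH factors, and an E-protein held by an Id protein is lost to both. BMP signals raise Id genes through SMAD1 and SMAD5, and in mESCs this link is known for holding back differentiation, while in the early embryo Id and bHLH factors take part in the choice of mesoderm and neural fates. The symbols need care: Tcf3 here encodes the E-protein E2A (E12 and E47), Tcf4 encodes E2-2 and Tcf12 encodes HEB, whereas the WNT effectors once called TCF3 and TCF4 are Tcf7l1 and Tcf7l2.

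The values are normalized counts, which summed to 19412659 in the smallest library and to 21311513 in the largest. The value of 3 reads, taken as the limit of detection, lay between 2.43 and 3.43 normalized counts, and every member was above it in every library. The study describes its libraries as biological replicates, but the 2 WT libraries of each day differed by less than the sampling noise of reads, with squared differences of 0.314 (day 0) and 0.278 (day 4) times those of independent reads, against 4.00 and 4.36 for the CTCF-K20R pairs. The WT libraries of each day were therefore counted as 1 sample, so that each comparison of genotypes set 2 CTCF-K20R samples against 1 WT sample, which was assumed to vary like the CTCF-K20R samples. A p-value then rests on 1 spread estimate per gene, shared by both days. A call on 1 day therefore depends on libraries of the other. This estimate joins the spread of the CTCF-K20R pairs (2 degrees of freedom) with a trend over all genes (3.51 degrees of freedom). The spread between these CTCF-K20R libraries may be technical. Since the libraries were made from bulk RNA, fewer cells of a type and less RNA per cell cannot be told apart.

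The stretch from 250 bases before to 50 bases after the start site is shown for Id2, Id3, Id4 and the most upstream start of Tcf12, so that the windows of members with different day 4 values can be set side by side. The sequences are RefSeq promoters on GRCm38.p6, written 5′ to 3′ on the strand of the gene, with capitals for E-boxes (CANNTG) and for the palindrome GGCGCC, which is known as a site of BMP-responsive SMADs in Id genes. Id2 is at chr12:25096043-25096342 (minus strand), Id3 at chr4:136143572-136143871 (plus), Id4 at chr13:48260866-48261165 (plus) and Tcf12 at chr9:72111770-72112069 (minus). The RefSeq starts of Id2 and Id3 lie inside the GENCODE gene spans given with their values.
Id2: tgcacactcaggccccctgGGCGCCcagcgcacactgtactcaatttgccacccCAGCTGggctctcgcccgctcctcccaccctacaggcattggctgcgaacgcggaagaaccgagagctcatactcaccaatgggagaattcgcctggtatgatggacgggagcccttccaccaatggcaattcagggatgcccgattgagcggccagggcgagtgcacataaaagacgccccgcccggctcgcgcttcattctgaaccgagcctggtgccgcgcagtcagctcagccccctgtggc
Id3: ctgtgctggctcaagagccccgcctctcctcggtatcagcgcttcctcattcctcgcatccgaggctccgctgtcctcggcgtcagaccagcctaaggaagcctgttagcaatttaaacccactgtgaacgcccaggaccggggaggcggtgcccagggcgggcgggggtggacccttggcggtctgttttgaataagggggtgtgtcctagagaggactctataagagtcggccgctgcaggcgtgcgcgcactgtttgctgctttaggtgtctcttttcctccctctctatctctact
Id4: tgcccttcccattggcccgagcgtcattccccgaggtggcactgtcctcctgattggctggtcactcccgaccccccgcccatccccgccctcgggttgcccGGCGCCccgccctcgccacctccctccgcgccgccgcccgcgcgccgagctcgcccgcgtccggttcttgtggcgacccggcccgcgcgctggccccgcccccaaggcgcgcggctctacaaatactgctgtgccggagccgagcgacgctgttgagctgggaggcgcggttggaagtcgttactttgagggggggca
Tcf12: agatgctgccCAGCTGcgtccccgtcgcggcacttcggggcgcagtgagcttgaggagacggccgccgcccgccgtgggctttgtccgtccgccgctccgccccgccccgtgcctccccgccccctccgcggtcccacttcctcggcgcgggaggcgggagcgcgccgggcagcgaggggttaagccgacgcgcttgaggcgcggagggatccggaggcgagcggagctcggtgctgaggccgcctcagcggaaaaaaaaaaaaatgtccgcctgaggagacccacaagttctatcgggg

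Both strands of 32851 promoters of this length were searched. An E-box was in 72.3% of them, GGCGCC in 11.9% and the short SMAD box CAGAC in 49.6%. The Id2 window held 1 E-box, CAGCTG, at position -196 from the start site, and 1 GGCGCC at -231. The Id3 window held neither of these, and had the SMAD box at 2 places, positions -167 and -68. The Id4 window had 1 GGCGCC, at -148, and no E-box. The Tcf12 window had 1 E-box, again CAGCTG, at -240. Of the windows not printed, that of Tcf3 had an E-box at -54. The second Tcf12 start had E-boxes at -149 and 19 and a SMAD box at -50, and the third had an E-box at -5. Id1 had no entry among these promoters, and Tcf4 was not included. The GC content was 63.3% for Id2, 60% for Id3, 73.3% for Id4 and 71.7% for Tcf12, against a median of 52.7% over all promoters. These matches are descriptions of the letters and not of bound sites.

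In WT cells, Id1, Id2, Id3 and Tcf12 were higher in EBs on day 4 than in mESCs, Id4 was lower, and Tcf3 and Tcf4 changed by no more than 1.22-fold. This comparison sets 1 averaged WT sample against 1 and has no replicate check. In it, 5 of the 7 members moved by more than 2-fold, 4 up and 1 down, where 35.2% of all genes tested did. In CTCF-K20R cells, Id1, Id2 and Tcf12 rose and Id4 fell from day 0 to day 4, and Id3 ended where it began. On day 4, CTCF-K20R EBs had less Id1, Id3, Id4, Tcf12, Tcf3 and Tcf4 mRNA than WT EBs, by 5.12-fold for Id1 down to 1.28-fold for Tcf4, and Id2 did not pass the test. On day 0 the 7 members differed between the genotypes by at most 1.60-fold.

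**Figure D1:**
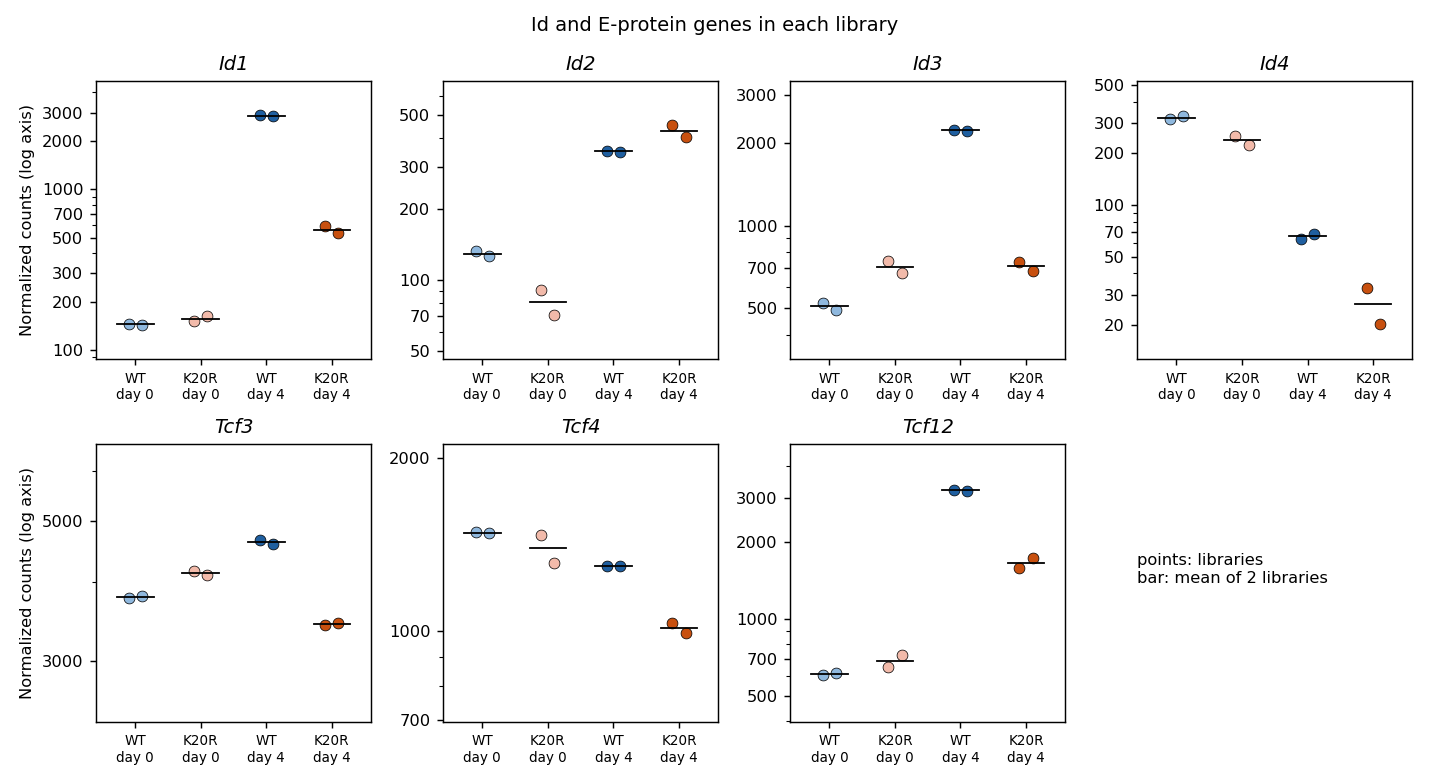
Normalized counts (log axis) of each member in the 8 libraries, by genotype and day, with a bar at the mean of the 2 libraries of a group. The WT day 4 libraries sit far above both CTCF-K20R day 4 libraries for Id1, Id3 and Tcf12, while for Id2 they sit just under them.

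Id1, the Id gene best known as a direct BMP target, is encoded at chr2:152736251-152737410 on the plus strand (GRCm38). Its values on day 0 were 146 and 143 in the WT libraries and 151 and 162 in the CTCF-K20R libraries. On day 4 they were 2897 and 2855 in WT EBs and 588 and 535 in CTCF-K20R EBs. Both WT EB libraries were thus far above all the others, and the CTCF-K20R EBs stood between them and the day 0 cells. The WT mean rose 19.9-fold and the CTCF-K20R mean 3.59-fold. On day 4 the CTCF-K20R mean was 19.5% of the WT mean, a log2 fold change of -2.36 (SE 0.124, adjusted p = 0.000152, limma with Benjamini-Hochberg adjustment, as for every adjusted p below). The log2 fold change on day 0 was 0.11 (95% interval -0.20 to 0.42, adjusted p = 0.588).

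Id3, the Id gene with the highest level per kb of transcript on day 0, is at chr4:136143497-136145755 on the plus strand. On day 0 it had 522 and 493 normalized counts in WT mESCs and 744 and 671 in CTCF-K20R mESCs. On day 4 it had 2230.5 and 2218 in WT EBs and 739 and 683 in CTCF-K20R EBs. The 4 CTCF-K20R libraries of both days therefore covered the same range, above WT mESCs and under WT EBs. From day 0 to day 4 the log2 change was 2.13 in WT cells and 0.01 in CTCF-K20R cells (95% interval -0.20 to 0.21, adjusted p = 0.945). Between the genotypes, Id3 was lower in CTCF-K20R EBs on day 4, with a log2 fold change of -1.65 (SE 0.101, adjusted p = 0.000234). It was higher in CTCF-K20R mESCs on day 0, with a log2 fold change of 0.48 (SE 0.101, adjusted p = 0.0341). The day 0 call was lost without either day 0 CTCF-K20R library (adjusted p = 0.107 and 0.0623) and without either day 4 CTCF-K20R library (adjusted p = 0.115 for both).

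Id2, which is at chr12:25093799-25097140 on the minus strand and is widely used in later lineages such as lymphoid cells, did not pass the test between the genotypes on either day. Its day 0 values were 132 and 126 in WT mESCs and 90.4 and 70.8 in CTCF-K20R mESCs. On day 4 they were 352 and 349.8 in WT EBs and 454 and 402 in CTCF-K20R EBs. The CTCF-K20R libraries were thus under the WT libraries on day 0 and over them on day 4, where 77.9% and 85% of all genes had no overlap of the genotypes. The log2 fold change was -0.68 on day 0 (SE 0.210, adjusted p = 0.0879) and 0.28 on day 4 (95% interval -0.24 to 0.81, adjusted p = 0.335). Within CTCF-K20R cells Id2 rose 5.30-fold to day 4 (log2 change 2.40, adjusted p = 0.000155), against 2.72-fold in WT cells.

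Id4, at chr13:48261228-48266026 on the plus strand, is best known from neural progenitors and was the Id gene that fell during differentiation. Its day 0 values were 316 and 328 for WT and 252 and 224 for CTCF-K20R. In EBs it had 63.8 and 68.0 in WT and 32.9 and 20.4 in CTCF-K20R, so that these last libraries were the lowest and also the farthest apart for their level. From day 0 to day 4 the mean fell to 20.4% in WT cells and to 11.2% in CTCF-K20R cells, the latter with a log2 change of -3.15 (SE 0.271, adjusted p = 0.000309). On day 4 the log2 fold change between the genotypes was -1.31 (SE 0.332, adjusted p = 0.027). The call was lost without the second CTCF-K20R EB library, at a log2 fold change of -0.98 and an adjusted p of 0.0845, and without either day 0 CTCF-K20R library (adjusted p = 0.0532 and 0.0524), and with only the libraries compared in the fit (adjusted p = 0.085). The antisense gene A330033J07Rik and the lincRNA Gm49291 overlap Id4 on the other strand, and the use of strand in the counting is not given in the sources used here, so reads of these genes cannot be told apart from those of Id4.

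Among the E-protein genes, Tcf12, which encodes HEB, changed by far the most. It is at chr9:71842688-72111871 on the minus strand. Its values were 602 and 617 in WT mESCs and 649 and 723 in CTCF-K20R mESCs, and on day 4 they were 3205 and 3196 in WT EBs and 1589.5 and 1733 in CTCF-K20R EBs. All 4 EB libraries were above all mESC libraries, and the CTCF-K20R EBs lay between the mESCs and the WT EBs. WT cells rose 5.25-fold and CTCF-K20R cells 2.42-fold, the latter with a log2 change of 1.27 (SE 0.0789, adjusted p = 9.36e-05). On day 4 the mean in CTCF-K20R EBs was 51.9% of that in WT EBs (log2 fold change -0.95, SE 0.0966, adjusted p = 0.00122). On day 0 the log2 fold change was 0.17 (95% interval -0.07 to 0.41, adjusted p = 0.295). Short genes of uncertain status and processed pseudogenes lie inside the span of Tcf12 on both strands, and their share in its values was not tested.

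Tcf3, at chr10:80409514-80433647 on the minus strand, encodes E2A. It had 3771 and 3793 normalized counts in WT mESCs, 4158 and 4103 in CTCF-K20R mESCs, 4659 and 4598 in WT EBs and 3411 and 3442 in CTCF-K20R EBs. The CTCF-K20R libraries were the higher ones on day 0 and the lowest of all on day 4, but the difference on day 0 was not called. Libraries of the genotypes did not overlap for 77.9% of all genes on day 0 and 85% on day 4. The log2 fold change on day 4 was -0.43 (SE 0.0408, adjusted p = 0.000925), and on day 0 it was 0.13 (95% interval 0.03 to 0.23, adjusted p = 0.0981). Over the 4 days CTCF-K20R cells fell by 0.27 (adjusted p = 0.0012) and WT cells changed by 0.29, both on the log2 scale. Gene-level values cannot separate the E12 and E47 forms.

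Tcf4, which encodes E2-2 and is best known from neural and dendritic cells, is at chr18:69343356-69689079 on the plus strand. In WT mESCs its values were 1485 and 1482, in CTCF-K20R mESCs 1469.9 and 1315, in WT EBs 1297 and 1299.6, and in CTCF-K20R EBs 1033 and 991. The CTCF-K20R EBs were the lowest of the 4 groups. The log2 fold change on day 4 was -0.36 (SE 0.0877, adjusted p = 0.024), and the call was lost without the first (adjusted p = 0.108) or the second (adjusted p = 0.14) CTCF-K20R EB library. The log2 fold change on day 0 was -0.09 (95% interval -0.31 to 0.13, adjusted p = 0.519). Over the 4 days CTCF-K20R cells fell by 0.46 on that scale (adjusted p = 0.003), a call lost without the second CTCF-K20R EB library (adjusted p = 0.0549).

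In all, 6 of the 7 members were called on day 4, each of them lower in CTCF-K20R EBs, where 40.1% of all genes tested were called in either direction. With the added limit of a 2-fold change, which defines DEGs in the study, Id1, Id3 and Id4 remained, 3 of 7 against 15.5% of all genes. Tcf12 was past 2-fold as well with quantile normalization (-1.03), with scaling to library totals (-1.05) and without the second CTCF-K20R EB library (-1.01). Id4 was not a DEG without that library, without either CTCF-K20R mESC library, and in the fits without the filter on low values, without the trend or with only the libraries compared, so that the number of members that were DEGs lay between 2 and 4. On day 0, Id3 was the 1 member called, where 15.4% of all genes were, and no member was a DEG, against 3.79% of all genes. The libraries of the genotypes did not overlap for any of the 7 members on either day, but this was so for 85% of all genes on day 4 and 77.9% on day 0. The median log2 fold change of all genes was 0.01 on day 4 and -0.01 on day 0, against -1.48 for the Id genes and -0.43 for the E-protein genes on day 4.

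Whether the genotypes differed in another way on day 4 than on day 0 was tested as an interaction, the log2 fold change on day 4 minus that on day 0. It was -2.47 for Id1 (SE 0.175, adjusted p = 0.000815), -2.12 for Id3 (SE 0.143, adjusted p = 0.000707), -1.12 for Tcf12 (SE 0.137, adjusted p = 0.0041) and -0.56 for Tcf3 (SE 0.0577, adjusted p = 0.00237). These 4 members of 7 were called, where 26.6% of all genes were, and 3 of them were also past 2-fold, where 12.9% of all genes were. The interaction did not pass for Id2 (0.97, 95% interval 0.22 to 1.71, adjusted p = 0.0657), Id4 (-0.87, -2.05 to 0.30, adjusted p = 0.228) or Tcf4 (-0.27, -0.58 to 0.04, adjusted p = 0.174). The call for Tcf12 was lost without the first (adjusted p = 0.0586) or the second (adjusted p = 0.0541) CTCF-K20R EB library, at values of -1.05 and -1.18. From day 0 to day 4 within CTCF-K20R cells, 6 members were called, 3 up (Id1, Id2, Tcf12) and 3 down (Id4, Tcf3, Tcf4), where 58.5% of all genes were, and 4 of them were DEGs, where 26.1% of all genes were.

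**Figure D2:**
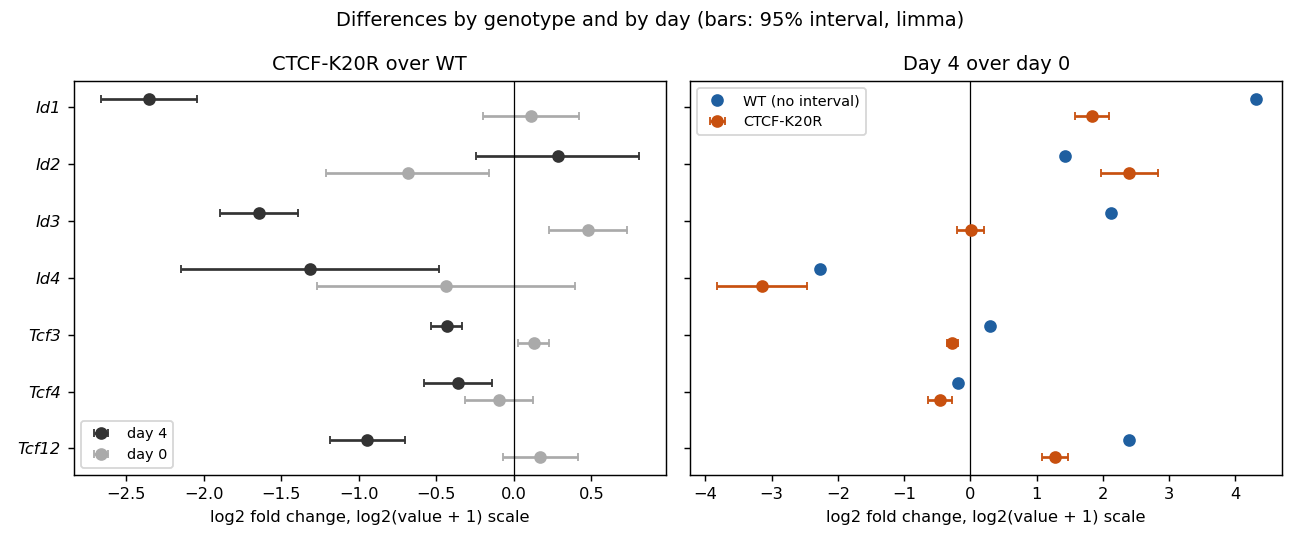
Log2 fold changes of the 7 members on the log2(value + 1) scale, CTCF-K20R over WT on each day (left) and day 4 over day 0 in each genotype (right), with 95% intervals from limma except for WT over time, which has none. On the left, the day 4 intervals of 6 members lie under 0 and that of Id2 spans it; on the right, Id3 is at 2.13 in WT and 0.01 in CTCF-K20R cells.

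To set levels of different genes side by side, normalized counts were divided by the median length of the coding transcripts of each gene in kb. On this per-kb scale Tcf3 was the highest member in WT mESCs (1335), CTCF-K20R mESCs (1457 ± 13.9, SD, n = 2) and CTCF-K20R EBs (1209 ± 7.88, SD, n = 2), but in WT EBs Id1 (2747) and Id3 (1741) were above it (1633). In mESCs of both genotypes the means went on with Tcf4, Id3, Tcf12, Id1, Id2 and Id4, but Id2 (63.5 ± 10.9) and Id4 (61.8 ± 5.20; SD, n = 2 for each) did not differ beyond their spread in CTCF-K20R mESCs. In CTCF-K20R EBs, Id3 (556 ± 31.5), Tcf4 (549.7 ± 16.0) and Id1 (536 ± 35.3; SD, n = 2 for each) were neighbours that did not differ beyond their spread. With the longest coding transcript in place of the median one, Tcf4 was lower in the order in all 4 groups and Tcf12 in all but the WT EBs, since their longest transcripts have 8577 and 6299 bases against medians of 1841.5 and 2257, and Id3 was then above Tcf4 in all 4 groups. With the mean length, Tcf3 was above Id3 in WT EBs and Id4 above Id2 in CTCF-K20R mESCs.

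The sum of Id1 to Id4 per kb was 721 in WT mESCs, 828 ± 48.7 in CTCF-K20R mESCs, 4781 in WT EBs and 1436 ± 97.9 in CTCF-K20R EBs (SD, n = 2). The sum of Tcf3, Tcf4 and Tcf12 per kb was 2410.1, 2518 ± 50.2, 3756 and 2495 ± 36.9 in the same order. With these lengths the Id sum was under the E-protein sum in all libraries but the WT EBs. The ratio of the Id sum to the E-protein sum was 0.305 and 0.293 in the WT mESC libraries and 0.338 and 0.320 in the CTCF-K20R mESC libraries. On day 4 it was 1.28 and 1.27 for WT and 0.610 and 0.542 for CTCF-K20R, which put the EBs of both genotypes above the mESCs and the CTCF-K20R EBs under the WT EBs. The size of the ratio depended on the length: in WT EBs its mean was 1.27 with the median, 1.98 with the longest and 0.604 with no length, which is under 1, against 0.576, 0.82 and 0.283 in CTCF-K20R EBs. The log2 ratio of CTCF-K20R to WT was -1.14 on day 4 and 0.14 on day 0, with 2 samples against 1, a design in which no exact permutation test can pass the threshold. These are sums of mRNA levels, and protein levels and pairing were not measured.

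The make-up of the sums differed too. Id3 was the largest part of the Id sum on day 0, with 55.1% in WT mESCs and 66.8% in CTCF-K20R mESCs. In WT EBs Id1 took 57.5% and Id2 5.78%, whereas in CTCF-K20R EBs Id1 took 37.3% and Id2 23.4%, so the share of Id2 was about 4 times as large in CTCF-K20R EBs. Id4 went from 11.6% of the sum in WT mESCs to under 1% in the EBs of both genotypes. In the E-protein sum, Tcf12 went from 11.2% in WT mESCs and 12.1% in CTCF-K20R mESCs to 37.8% in WT EBs and 29.5% in CTCF-K20R EBs, and Tcf3 took the largest part in all 4 groups.

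**Figure D3:**
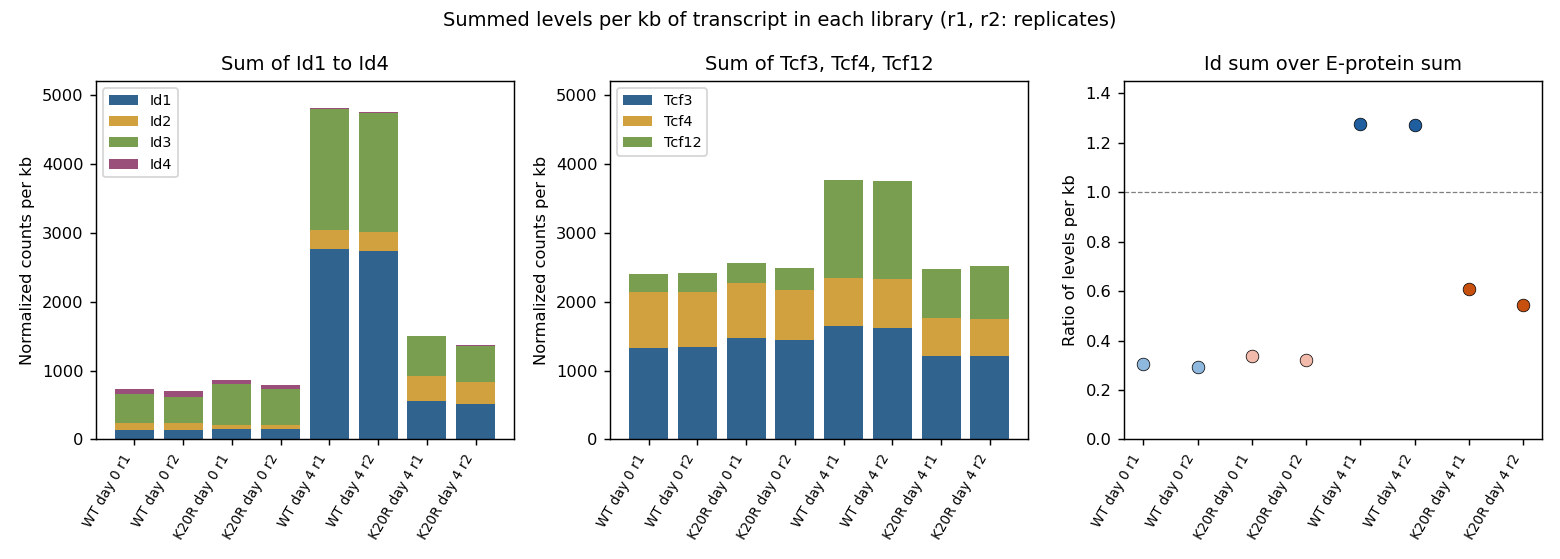
Normalized counts per kb of coding transcript, stacked for Id1 to Id4 (left) and for Tcf3, Tcf4 and Tcf12 (middle), and the ratio of these sums (right; dashed line at 1), in each of the 8 libraries. The ratio is 1.28 and 1.27 in WT EBs, 0.610 and 0.542 in CTCF-K20R EBs and between 0.293 and 0.338 in the mESC libraries.

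The BMP pathway upstream of the Id genes was read from lists of ligands, receptors with their SMADs, and extracellular inhibitors. Of the 8 ligand genes tested, 1 rose and 4 fell in CTCF-K20R EBs on day 4, with a median log2 fold change of -1.60; here and for the lists that follow, 40.1% of all genes were called in either direction on that day, with a median of 0.01. Bmp7 fell from 1163 and 1168 normalized counts with WT to 107 and 109 with CTCF-K20R (log2 fold change -3.42, adjusted p = 0.000143). Bmp2 fell from 309.8 and 299 to 8.04 and 5.39 (adjusted p = 0.0024), and Bmp5 from 63.4 and 62.7 to 0 in both libraries, at least 18.4-fold lower at the limit of 3 reads (adjusted p = 0.00269). Bmp4, the ligand best known from mesoderm formation, fell as well (254 and 256 against 39.0 and 47.7, log2 fold change -2.54, adjusted p = 0.000541). Gdf3, a TGF-beta family ligand of pluripotent cells, was the gene that rose (45.3 and 48.0 against 467 and 482, log2 fold change 3.32, adjusted p = 2.76e-05).

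Of the 11 receptor and SMAD genes, 1 rose and 4 fell on day 4, a share close to the 40.1% of all genes, with a median of -0.17. Of the SMADs that carry the BMP signal, Smad1 and Smad5 fell, and Smad9 did not pass (-1.47, adjusted p = 0.0629). Smad4 was the gene of this list that rose (2357 and 2346 against 2692 and 2800, log2 fold change 0.22, adjusted p = 0.0236). Smad1 was at 1888 and 1884 in WT EBs against 666 and 660.4 in CTCF-K20R EBs (log2 fold change -1.51, adjusted p = 0.000178), after being higher in CTCF-K20R mESCs on day 0 (0.64, adjusted p = 0.00922). Smad5 had 2435 and 2422 against 1091 and 1279 (-1.04, adjusted p = 0.00145). The inhibitors that hold BMP ligands outside the cell fell too: 6 of 8 passed the test and none rose, with a median of -3.41. Cer1 was at 7907 and 7871 in WT EBs and at 8.01 and 8.76 in CTCF-K20R EBs (adjusted p = 0.000231), and Chrd had 2287 and 2265 against 94.9 and 76.8 (-4.72, adjusted p = 0.000133). Bmper (adjusted p = 0.00109) and Nog (adjusted p = 0.00225) were near the limit of detection in CTCF-K20R EBs.

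Other targets and feedback genes of BMP-SMAD signals did not all follow Id1 and Id3. Of 12 such genes tested, 7 fell and 3 rose on day 4, with a median of -1.51. Msx2, a homeobox gene, was at 398 and 379 in WT EBs and at 6.81 and 12.9 in CTCF-K20R EBs (log2 fold change -5.23, adjusted p = 0.000617), although it was higher in CTCF-K20R mESCs on day 0 (1.92, adjusted p = 0.0399). Its relative Msx1 fell by 3.61 on the log2 scale (adjusted p = 0.0243), and Gata3, a factor of trophoblast and mesoderm, by 2.88 (adjusted p = 0.00391). Atoh8 fell to between 2.35 and 4.33 normalized counts, near the limit (adjusted p = 0.0126). Spon1 rose from 59.3 and 57.2 in WT EBs to 428 and 439 in CTCF-K20R EBs (2.87, adjusted p = 0.00233), and Dlx3 rose by 1.82 (adjusted p = 0.0122). The inhibitory SMADs, which damp the pathway, were split: Smad6 fell by 2.12 (adjusted p = 0.00859), and Smad7 was higher, with a log2 fold change of 1.25 (535 and 524 against 1207 and 1324, adjusted p = 0.000228).

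Among the bHLH factors that pair with E-proteins, of 32 listed genes, 17 were in the table and 12 were tested, of which 6 fell and 4 rose on day 4. The 4 with the largest changes were Msgn1, Mesp1, Hand2 and Hand1. Mesp1, the gene of early cardiac mesoderm, was at 1697 and 1693 in WT EBs and at 2.40 and 1.07 in CTCF-K20R EBs (adjusted p = 0.000197). Msgn1, which acts in presomitic mesoderm, had 881 and 884 in WT EBs and 0 in both CTCF-K20R libraries, at least 257-fold lower (adjusted p = 0.000234). Hand1 and Hand2, factors of heart and lateral mesoderm, fell as well (adjusted p = 0.00431 and 0.00657). Neurod1, a neuronal factor, rose from 17.4 in both WT EB libraries to 181 and 158 (log2 fold change 3.21, adjusted p = 0.00149), and Tcf15, which is known in epiblast as well as in somites, had 68.1 and 67.0 in WT EBs against 292 and 348 (2.22, adjusted p = 0.000541). Bhlha15 (1.36, adjusted p = 0.015) and Tcfl5 (1.18, adjusted p = 0.000278) were the others that rose, and Tal1, a factor of blood and its mesoderm, did not pass (0.36, adjusted p = 0.606).

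Of 5 HES and HEY genes tested, bHLH repressors that act beside E-proteins, 3 fell and 1 rose on day 4. Hes1 was at 1834 and 1789 in WT EBs and at 531 and 470.4 in CTCF-K20R EBs (log2 fold change -1.85, adjusted p = 0.000178), Hes7 fell by 2.04 on the log2 scale (adjusted p = 0.00764) and Hey1 by 1.02 (adjusted p = 0.0101). Of 10 cofactors of E-proteins, 3 rose and 5 fell, with a median of -0.55. Lmo2, a bridging partner in blood precursors, was at 282 and 284 in WT EBs against 32.5 and 19.4 (adjusted p = 0.0436), Lmo1 fell by 2.93 on the log2 scale (adjusted p = 0.00873), and the acetyltransferase gene Kat2b was higher by 1.02 (adjusted p = 0.00131). Crebbp, which encodes the coactivator CBP, was lower in CTCF-K20R cells on day 4 (-0.77, adjusted p = 0.00206) and on day 0 (-0.80, adjusted p = 0.0061). Ep300, another gene of this list, was higher on day 4 (0.49, adjusted p = 0.0156) and did not pass on day 0 (-0.02, adjusted p = 0.917).

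Of 10 tested genes that are known as regulated through Id proteins or E-proteins, 6 rose and 2 fell on day 4, where 40.1% of all genes were called, with a median of 1.11. This list was not split by whether a gene is raised or lowered through these proteins, so its median does not measure their activity. Lefty1 was at 634 and 617 in WT EBs and at 2333 and 2433 in CTCF-K20R EBs (log2 fold change 1.93, adjusted p = 7.44e-05). Thbs1 (1.85, adjusted p = 0.0166) and the cell cycle inhibitor gene Cdkn2a (1.56, adjusted p = 0.00282) rose as well. Cdh1, which encodes E-cadherin and has E-boxes known as E-protein sites, was at 7650.0 and 7666 in WT EBs against 17798 and 18538 (1.25, adjusted p = 3.02e-05), and Nodal, the ligand that Lefty proteins restrain, at 777 and 757 against 1899 and 1942 (1.32, adjusted p = 0.000102). Cdkn1c, another cell cycle inhibitor gene, fell by 2.42 (adjusted p = 0.00251), and Lefty2 fell by 0.60 (adjusted p = 0.000651).

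**Figure D4:**
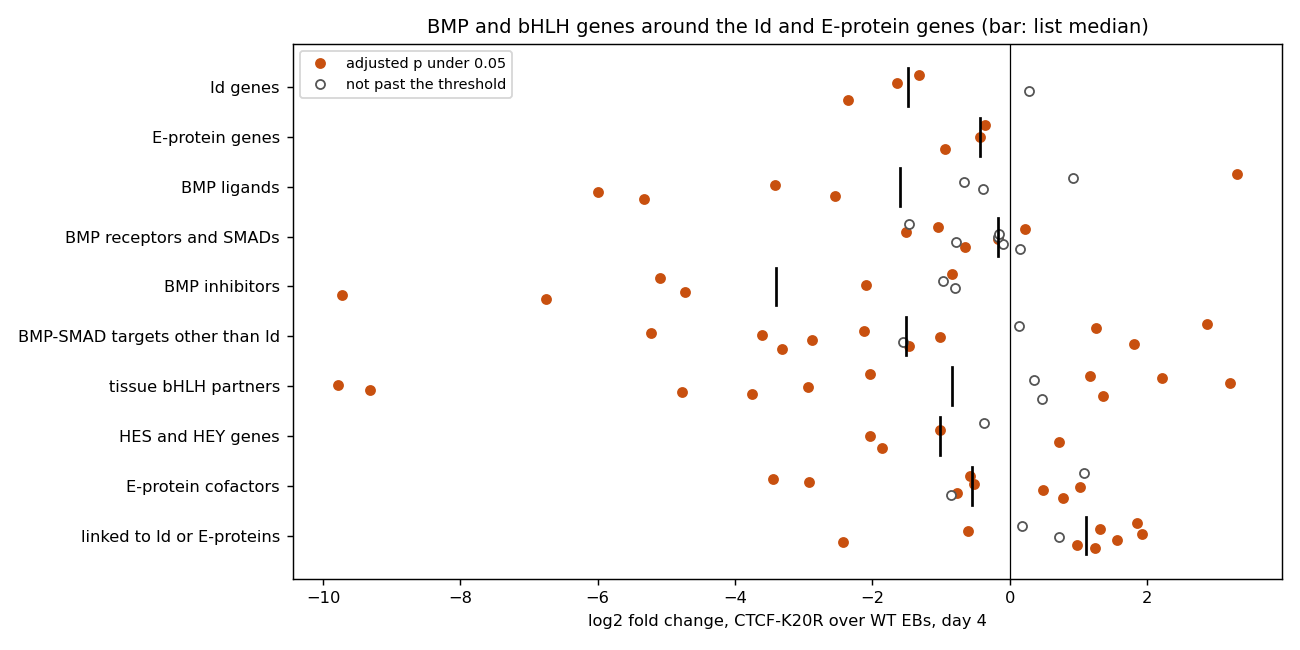
Log2 fold changes on day 4, CTCF-K20R over WT EBs, of the members and of the tested genes of 8 lists, with filled points for an adjusted p under 0.05, open points for the others and a bar at the list median; values of genes at or near 0 in one genotype depend on the pseudocount of 1. The BMP inhibitors have the lowest median (-3.41) and the genes linked to Id or E-proteins the highest (1.11).

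Markers of cell types moved with these results on day 4. Of 16 primitive streak and mesoderm markers, 14 fell and none rose, and their summed level was 65714 to 66041 normalized counts in WT EBs and 3593 to 3676 in CTCF-K20R EBs. Endoderm markers summed to 8984 to 9033 in WT EBs and 225 to 291 in CTCF-K20R EBs, with 5 of 8 tested lower and 1 higher, and Ttr was under the limit in every library. Naive pluripotency markers summed to 3694 to 3744 against 8596 to 8820 (7 of 11 higher, 2 lower), primed epiblast markers to 66659 to 66728 against 89201 to 89788 (5 of 9 higher, 1 lower), and neural ectoderm markers to 6813 to 6814 against 8654 to 8801 (5 of 8 higher, 1 lower). Nanog carried most of the rise of the naive sum, from 1702 and 1698 in WT EBs to 5510 and 5208 in CTCF-K20R EBs. Klf4 (log2 fold change -1.48, adjusted p = 0.00405) and Tbx3 (-1.88, adjusted p = 0.014) were the 2 naive markers that fell. Dnmt3b alone rose about as much as the primed sum, from 14624 and 14620 in WT EBs to 36756 and 38180 in CTCF-K20R EBs. Tdgf1 fell from 23707 and 23669 to 11856 and 11495. Sox2 alone rose by more than the neural sum, from 608 and 618 to 3240 and 3192, and was between 12811 and 13545 in the mESC libraries. Sox11 fell from 4029 and 4057 to 2399 and 2555. The part of the cell type markers in the changes of the Id and E-protein genes was not tested. In the mESCs, naive markers summed to between 93111 and 97983 in all 4 libraries. For the feeder cells, the fibroblast markers summed to 777 to 782 in WT mESCs and 603 to 684 in CTCF-K20R mESCs. Thy1 alone was at 465 and 459 against 104 and 103 (day 0 log2 fold change -2.14, adjusted p = 0.00155), and without it, left out after its values were seen, the 11 others summed to 317 and 319 against 499 and 580. On day 0 Pdgfrb and Fbln2 were called higher and Thy1 lower of 10 tested, beside 15.4% of all genes. Lum was under the limit in every library, Dcn and Postn were at 0 in all mESC libraries, and on day 4 2 of 10 were higher and 3 lower.

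The namesakes from the WNT pathway did not share one direction with the members. Tcf7l1, the factor once called TCF3, was higher in CTCF-K20R EBs, at 1466 and 1458 normalized counts in WT against 2124 and 2103 (log2 fold change 0.53, adjusted p = 0.00102). Tcf7l2, once called TCF4, was lower, at 787 and 803 against 210.1 and 164 (-2.09, adjusted p = 0.00147).

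The 20 nearest tested genes of each member, 10 on each side, had median log2 fold changes on day 4 between -0.18 (around Id4) and 0.17 (around Tcf3), and on day 0 between -0.05 (Tcf12) and 0.07 (Tcf4). Around Id1, between 152.3 and 153.2 Mb of chromosome 2, 6 of 20 neighbours were called higher and 3 lower on day 4, with a median of -0.04, where 40.1% of all genes were called. The counts higher and lower were 2 and 5 around Id2, 3 and 3 around Id3, 4 and 2 around Id4, 4 and 0 around Tcf3, 6 and 1 around Tcf4, and 0 and 5 around Tcf12. The stretches differed in length. They ran from 80.28 to 80.66 Mb of chromosome 10 around Tcf3 and from 22.1 to 30.9 Mb of chromosome 12 around Id2. Some neighbours lie across or inside a member, such as A330033J07Rik at Id4.

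Genes with the pattern most like that of each member were found by the root mean square difference of log2 values, each centred on its own mean, over the 6 samples, for genes whose mean reached 100 normalized counts. For Id1 they were Mlf1 (0.154), Zfp362 (0.195) and Krt8 (0.206), and for Id3 they were Rab8b (0.104), Sept8 (0.107) and Ppfibp1 (0.108). For Id2 they were Ttc21b (0.147), Lgals1 (0.147) and Gm26552 (0.159), and for Id4 they were Akap2 (0.143), Adamts14 (0.192) and Elf3 (0.199). For Tcf12 they were Golim4 (0.0383), Snn (0.0643) and Sept6 (0.081), for Tcf3 they were Rtn4 (0.0448), Txndc12 (0.0481) and B4galt7 (0.0496), and for Tcf4 they were Pdia4 (0.0401), Poc1a (0.0401) and Man2c1 (0.0442). No member was among the 3 most alike genes of another.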

How the data were processed

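RNA-seq of 8 libraries was used. The authors used Trim_Galore 0.4.4 for trimming, salmon 0.9.1 with mm10 for quantification, tximport 1.20.0 for gene sums and DESeq2 1.10.1 for normalization; the deposited values are this signal, normalized counts per gene and library. Annotation release and strand are not given in the sources used here. Whole reads could not be recovered, so log2(value + 1) was fitted with limma 3.58.1 (R 4.3.3; lmFit, eBayes with trend) over genes with a mean of at least 10, with WT pairs averaged (6 samples), Benjamini-Hochberg adjustment and a threshold of 0.05. The script was tested on simulated data. Replicate numbers were not used to pair samples: correlations of replicate differences lay between -0.031 and 0.030. The WT pairs differed by less than sampling noise, so correlations with them cannot show a pairing. Between the CTCF-K20R pairs of day 0 and day 4 the correlation was -0.01. Gene positions and lengths came from GENCODE vM21, promoters from RefSeq, and motifs were searched with Python 3.11.15.

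The members and gene lists were chosen with earlier results of these data known. Named genes were all members, up to 4 DEGs with the largest change in each list, the 3 genes most like each member, Tcf7l1 and Tcf7l2. Bmp4, Smad6, Smad7, Smad9, Neurod1, Tcf15, Bhlha15, Tcfl5, Tal1, Crebbp, Cdh1, Nodal, Lefty2, Thy1, Pdgfrb and Fbln2 were named after their values were seen. So were Smad4, Spon1, Dlx3, Ep300, Nanog, Klf4, Tbx3, Dnmt3b, Tdgf1, Sox2 and Sox11. Alternatives were other treatments of WT pairs, pseudocounts, filters, scalings, spread estimates, a replicate block and leaving out each library.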

Additional observations from a re-analysis of the deposited data

Results flagged for a closer look

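The difference between the genotypes was not the same on day 4 as on day 0 for 4 members, by the interaction term of limma with Benjamini-Hochberg adjustment. This term was called for 26.6% of all genes tested. For Id1 the log2 fold change on day 4 was lower than that on day 0 by an interaction of -2.47 (adjusted p = 0.000815). For Id3 the interaction was -2.12 (adjusted p = 0.000707). For Tcf12 it was -1.12 (adjusted p = 0.0041), and for Tcf3 it was -0.56 (adjusted p = 0.00237). In all 4 members the CTCF-K20R libraries were above the WT libraries on day 0 and under them on day 4. Libraries of the genotypes did not overlap, in either direction, for 77.9% of all genes on day 0 and 85% on day 4. Of the 4 members, Id3 was the 1 called on day 0, so for the others a difference on that day was not shown. Groups of 2 libraries were too small for a search for single libraries far from the others.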

How the results depend on the processing

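Over 497 recomputed values of the members, 461 kept their direction and their side of the threshold, 21 lost a call, 13 gained one and 2 changed sign. On day 4 the calls of Id1, Id3, Tcf3 and Tcf12 held in all 18 alternatives (highest adjusted p of 0.018, 0.0201, 0.0335 and 0.0356). Id4 and Tcf4 lost theirs without the filter on low values (adjusted p = 0.0631 and 0.0502) and without the trend (0.0761 and 0.0985), and Id4 also with only the libraries compared (0.085). The interaction of Tcf3 was lost without the trend (0.0584). The cause of these changes was not tested. On day 0 the number of members called, 1, became 3 with all 8 libraries as separate samples, 4 with a replicate block in that fit, and 0 without the filter, without the trend or with only the libraries compared; leaving out a library gave 0 to 1. The day 0 DEGs among all genes, 598 (188 higher, 410 lower), became 1348, 1344 with the replicate block, 56 without the trend and 146 with only the libraries compared, and 0 to 618 when a library was left out, with 366 without the first CTCF-K20R mESC library and 0 without either CTCF-K20R EB library; quantile normalization gave 228 higher and 322 lower. The interaction called 7 members in place of 4 with all 8 libraries as separate samples, with or without the replicate block, and its DEGs among all genes, 2031, became 3340 and 3325 there, and 881 to 2057 when a library was left out (912 and 881 without the first and second CTCF-K20R EB library). With the replicate block and averaged WT pairs, the interaction of Id2 passed (adjusted p = 0.0467); the block changed no other call of a member in that fit. The DEGs among all genes on day 4, 2451, lay between 1609 (without the first CTCF-K20R EB library) and 2467 when a library was left out. The change of Id3 in CTCF-K20R cells over time, 0.01, lay between -0.066 (without the second CTCF-K20R mESC library) and 0.081, and was -0.05 without the first CTCF-K20R EB library. The log2 ratio of CTCF-K20R to WT in the Id to E-protein ratio was -1.27 with the longest transcripts on day 4 and 0.019 with no length on day 0. Scaling to library totals moved the median of all genes on day 4 from 0.01 to -0.095; no member changed direction, and Tcf4, the smallest change called on that day, was at -0.47 there. With 2 libraries a group, of which the WT pairs count once, the number of samples limits the precision.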
